A study of Mus musculus with 9 samples.

Results

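The genes described here are 35 members of the glycolytic pathway and of the transcriptional response to low oxygen, of 19369 genes listed in at least 1 sample. They were chosen for their roles in these pathways and matched by Entrez Gene identifier. They comprise the glucose transporter *Slc2a1*, 17 glycolytic enzyme genes, 4 kinase genes that set the flow through the pathway, 3 hypoxia-inducible factor (HIF) alpha subunits, 4 oxygen-sensing genes and 6 further hypoxia-responsive genes. All 35 were listed in every sample and passed the filter on low counts.

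RNA-Seq was carried out on 3 samples from each of 3 stages of wild-type C57BL/6 mouse embryos, with no treatment named for any of them. The stages were the periocular neural crest (pNC) at E10.5, the cornea at E14.5 and the cornea at E16.5, each sample pooled from several eyes. The E10.5 tissue was freed of ectoderm, lens vesicle and optic cup with dispase, and the corneas were cut away from the surrounding tissue. By design, surface epithelium was thus removed at E10.5 and kept at the later stages. The pNC samples still held low levels of epithelial marker RNA, given below. Each library held between 8745161 and 9069023 expected counts, an estimated number of reads per gene. Values are whole-tissue averages, and fewer cells of a type cannot be told apart from less RNA per cell.

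Glycolysis turns glucose into pyruvate, which lactate dehydrogenase can reduce to lactate. When oxygen is sufficient, prolyl hydroxylases encoded by the *Egln* genes mark HIF alpha subunits for destruction through the *Vhl* protein. When oxygen is low, the subunits persist, pair with a constitutive partner and raise the transcription of glucose transporters, glycolytic enzymes and several inhibitors of mitochondrial respiration. The avascular cornea is known for its reliance on glucose, and its epithelium is rich in the transporter encoded by *Slc2a1*.

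The tissues carried the markers of their labels. The summed level of 6 corneal epithelial markers ran from 21.9 to 29.6 FPKM (fragments scaled for transcript length and library total) in pNC, from 531 to 1942 in E14.5 corneas and from 5029 to 7321 in E16.5 corneas. Those of 4 keratocyte markers ran from 87.0 to 131, from 1944 to 5267 and from 8093 to 9696 FPKM. E14.5 replicate 1 lay nearest to E16.5, with 1942 FPKM of epithelial markers against 531 and 655 in the other E14.5 samples. Red blood cell markers ran from 5044 to 7885 FPKM in pNC, 1822 to 2344 in E14.5 corneas and 649 to 1357 in E16.5 corneas. Vascular endothelial markers ran from 109 to 173, from 47.2 to 88.4 and from 22.8 to 35.9 FPKM. Lens markers summed to at most 2.48 FPKM in any sample, and retinal and pigment epithelial markers to between 21.5 and 73.2. The part these cell types played in the results below was not tested.

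Between the pNC and the E16.5 cornea, several abundant enzyme genes fell while a transporter, the minor aldolase form *Aldoc* and some HIF-responsive genes rose. Of the 35 genes, 8 rose and 4 fell by at least 2-fold with an adjusted p under 0.05 (edgeR quasi-likelihood test). The same rule called 19.4% of all 14771 tested genes higher and 15.4% lower, so both shares of members were near the background. The genes that rose were *Slc2a1*, *Aldoc*, *Pdk1*, *Pfkfb4*, *Hif3a*, *Egln3*, *Ndrg1* and *Ankrd37*. The genes that fell were *Gapdh*, *Eno1*, *Pkm* and *Ldhb*, all of them abundant enzymes. With no minimum on the fold, 12 rose and 12 fell, against 35.2% and 34.7% of all tested genes. In FPKM, 10 members were higher and 16 lower in every E16.5 sample than in every E10.5 sample, as were 33.0% and 44.1% of all tested genes.

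**Figure D1:**
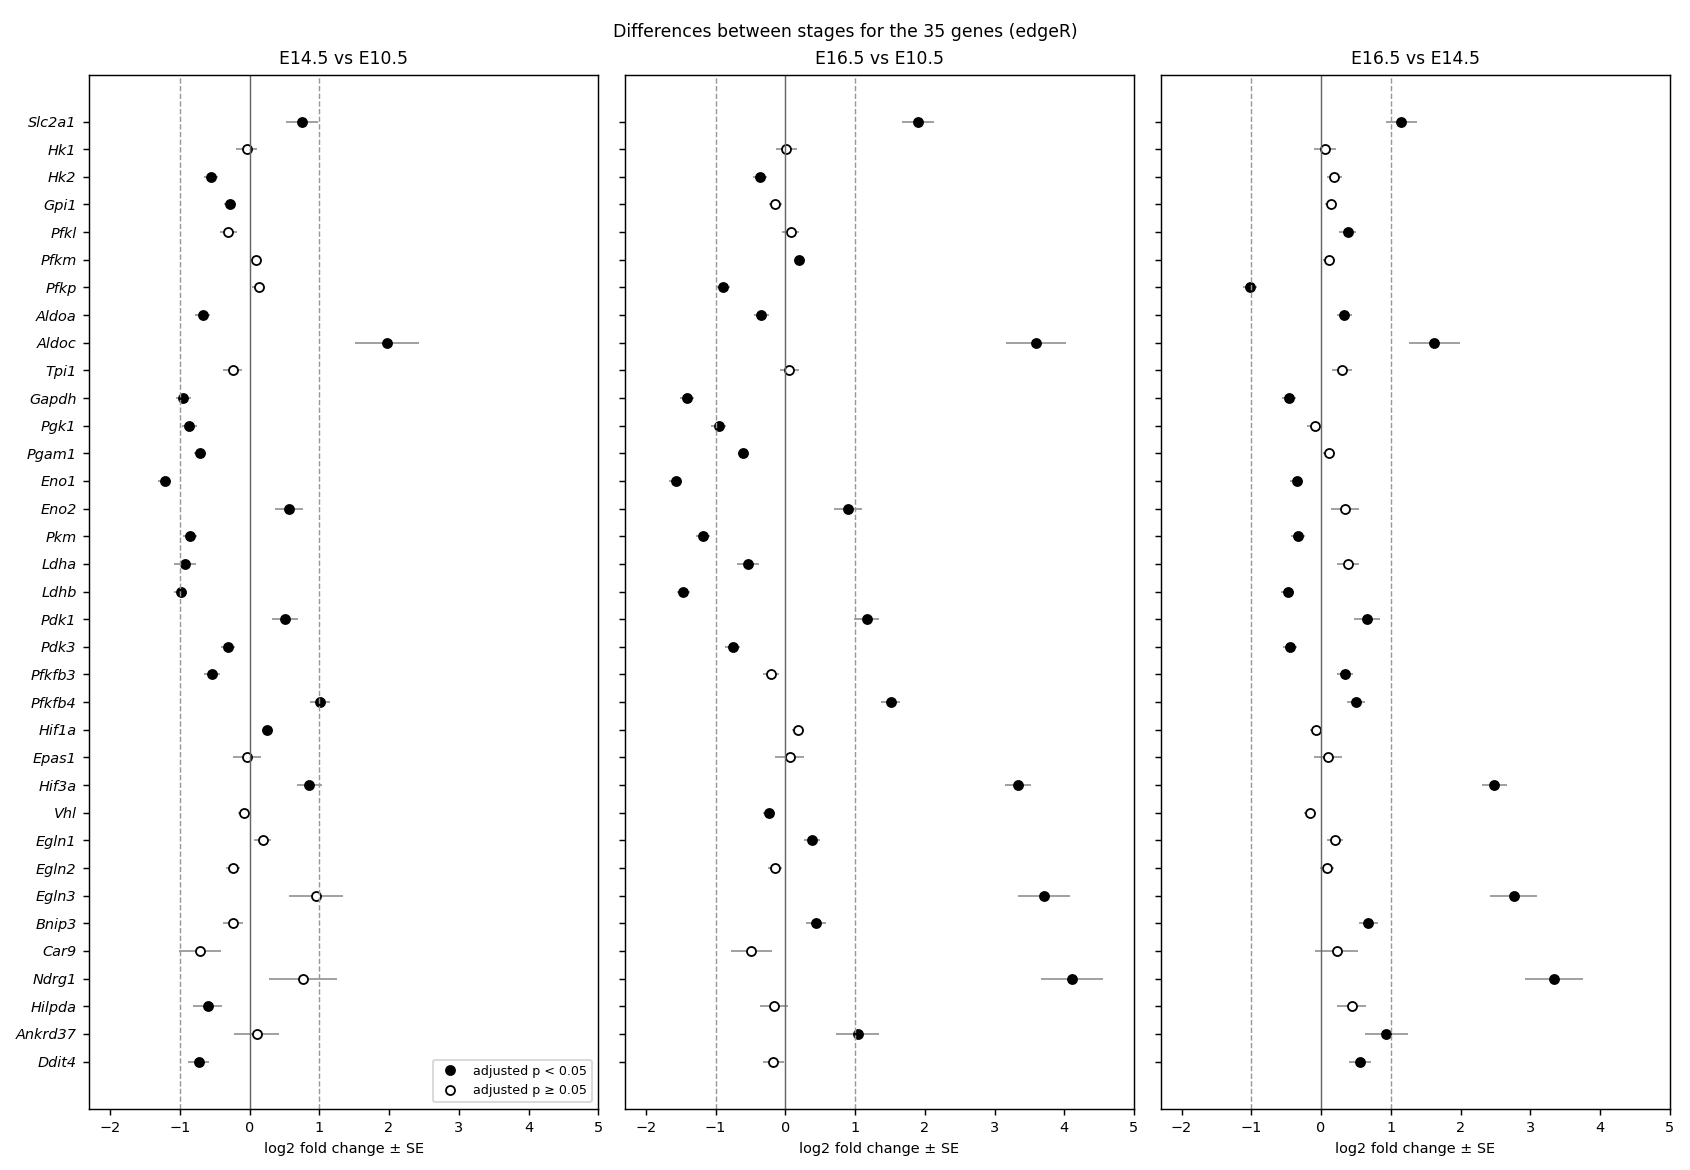
Log2 fold change with its standard error (x axis) for each of the 35 genes (y axis) in the 3 comparisons of stages, from the edgeR model of all 9 samples. Filled points have an adjusted p under 0.05 and the dashed lines mark a 2-fold difference. *Ndrg1*, *Egln3*, *Aldoc* and *Hif3a* lie beyond 3 on the log2 scale in E16.5 vs E10.5, while *Eno1*, *Ldhb*, *Gapdh* and *Pkm* lie below -1.

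Promoter sequences of 6 genes are shown because they cover the directions seen: *Slc2a1*, *Hif3a* and *Egln3* rose, *Gapdh* and *Ldhb* fell, and *Hif1a* differed by less than 2-fold. Each is the 250 bases before an annotated transcript start in RefSeq (GRCm38.p6), read 5′ to 3′ on the gene's strand. The windows of *Gapdh* and *Hif1a* stand before a start inside the gene, so they lie within its span. Capitals mark the core letters of the HIF-binding element, ACGTG or GCGTG, on either strand (CACGT or CACGC on the other).
Slc2a1 (chr4:119108495-119108744, plus strand): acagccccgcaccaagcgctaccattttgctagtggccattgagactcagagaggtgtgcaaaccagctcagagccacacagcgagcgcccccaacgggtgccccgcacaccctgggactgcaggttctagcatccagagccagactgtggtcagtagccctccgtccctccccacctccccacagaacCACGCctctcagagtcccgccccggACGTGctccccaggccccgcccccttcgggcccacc
Hif3a (chr7:17062428-17062677, minus strand): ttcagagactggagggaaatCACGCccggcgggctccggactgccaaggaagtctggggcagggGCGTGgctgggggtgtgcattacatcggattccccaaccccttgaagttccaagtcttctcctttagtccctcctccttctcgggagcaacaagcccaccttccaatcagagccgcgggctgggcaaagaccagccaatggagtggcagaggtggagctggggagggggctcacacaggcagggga
Egln3 (chr12:54203875-54204124, minus strand): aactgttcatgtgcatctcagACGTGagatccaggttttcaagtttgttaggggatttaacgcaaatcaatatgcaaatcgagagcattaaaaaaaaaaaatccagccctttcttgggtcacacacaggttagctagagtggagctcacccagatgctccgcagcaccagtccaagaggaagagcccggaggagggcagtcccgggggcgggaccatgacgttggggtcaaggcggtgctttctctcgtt
Gapdh (chr6:125165774-125166023, minus strand): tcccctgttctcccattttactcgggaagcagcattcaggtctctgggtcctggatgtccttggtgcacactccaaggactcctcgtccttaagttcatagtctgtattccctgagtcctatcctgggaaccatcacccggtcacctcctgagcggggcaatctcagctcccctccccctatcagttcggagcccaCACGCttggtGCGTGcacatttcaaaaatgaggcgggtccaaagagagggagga
Ldhb (chr6:142507958-142508207, minus strand): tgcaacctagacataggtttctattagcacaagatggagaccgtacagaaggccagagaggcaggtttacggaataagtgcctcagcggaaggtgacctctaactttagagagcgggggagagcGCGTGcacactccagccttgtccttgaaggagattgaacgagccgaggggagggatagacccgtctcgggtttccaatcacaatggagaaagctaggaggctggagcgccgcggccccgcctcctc
Hif1a (chr12:73907617-73907866, plus strand): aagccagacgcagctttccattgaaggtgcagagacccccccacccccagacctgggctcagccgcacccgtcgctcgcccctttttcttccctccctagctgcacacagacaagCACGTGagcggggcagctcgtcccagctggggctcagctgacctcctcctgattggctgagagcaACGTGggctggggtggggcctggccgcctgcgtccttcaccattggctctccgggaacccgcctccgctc

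The motif was present before at least 1 annotated start of 29 of the 33 members with a sequence (87.9%), and of 11226 of all 27025 genes with one (41.5%). The other two were *Ndrg1* and *Epas1*. Counted per start, 79.2% of 48 member windows and 38.6% of all 32851 windows held it. Member windows were also richer in CpG dinucleotides, which the motif contains, with a median of 14 against 6. The motif was found for 7 of 7 genes that rose from E10.5 to E16.5, for 4 of 4 that fell and for 18 of 22 that were not called, so its presence did not separate these groups. A match of letters is a description of the sequence and not a measurement of binding.

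Glucose uptake came first among the members by role. *Slc2a1* (gene 20525, chromosome 4, 119108745 to 119137330, GRCm38) encodes GLUT1, the main basal glucose transporter of many tissues. Its FPKM was 78.4, 73.7 and 62.2 in the E10.5 samples, 176, 82.5 and 105 in the E14.5 samples, and 274, 221 and 228 in the E16.5 samples. No 2 stages overlapped. *Slc2a1* rose 3.73-fold from E10.5 to E16.5 (log2 1.90 ± 0.23 SE, adjusted p = 2.91e-05, edgeR) and 2.22-fold from E14.5 to E16.5 (log2 1.15 ± 0.23, adjusted p = 0.00368, edgeR). The latter fell short of 2-fold with library totals in place of composition scaling (log2 0.99) and without E14.5 replicate 2 (log2 0.93).

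The enzymes that follow glucose uptake had a lower summed FPKM at each later stage, most of the fall lying between E10.5 and E14.5. The summed FPKM of the 17 glycolytic enzyme genes was 6629 ± 355 (SD, n = 3) in pNC, 3679 ± 57.0 in E14.5 corneas and 2987 ± 141 in E16.5 corneas. They held 1.12% ± 0.056 of all expected counts in pNC, 0.637% ± 0.017 in E14.5 corneas and 0.529% ± 0.024 in E16.5 corneas. The ranges of the 3 stages did not overlap on either scale. Without *Gapdh*, the sums were 4125 ± 209, 2370 ± 171 and 2136 ± 106 FPKM. The E14.5 and E16.5 ranges then overlapped. Of the 17 genes, 10 were lower and 3 higher in E16.5 corneas than in pNC with an adjusted p under 0.05 (edgeR), against 34.7% lower and 35.2% higher of all tested genes. The median log2 fold change was -0.36 against 0.00 for all tested genes. From E14.5 to E16.5 the median of the 17 genes was 0.12 against -0.02. That median comes from counts with composition scaling, which the summed FPKM lacks, so it does not show how many genes shared the lower sum. With library totals the median of all tested genes there was -0.19. Of the 17 genes, 5 were lower and 3 higher at E16.5 than at E14.5 with an adjusted p under 0.05 (edgeR), against 17.5% each way.

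Genes of the ATP-spending steps mostly differed by less than 2-fold. The hexokinases, which trap glucose in the cell, were at 10.47 to 13.6 FPKM in pNC and 9.62 to 12.03 in E16.5 corneas for *Hk1*, with overlapping ranges. *Hk2*, a hexokinase known to respond to HIF, ran from 10.8 to 12.3 FPKM in pNC, 7.29 to 8.56 in E14.5 corneas and 7.65 to 8.52 in E16.5 corneas. It fell by 0.36 ± 0.10 on the log2 scale from E10.5 to E16.5 (adjusted p = 0.00799, edgeR). For the isomerase gene *Gpi1* the difference was -0.14 ± 0.09 (adjusted p = 0.172, edgeR), with a 95% interval from -0.33 to 0.05.

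Phosphofructokinase catalyses the committed step of glycolysis and is built from the products of 3 genes. *Pfkl* (65.3 to 72.4 FPKM in pNC and 60.1 to 68.2 in E16.5 corneas) and *Pfkm* (25.0 to 28.2 and 26.5 to 29.3 FPKM) were the main forms throughout. *Pfkp*, the platelet form, was at 6.76, 6.70 and 6.80 FPKM in pNC, at 7.07, 7.67 and 7.62 in E14.5 corneas and at 3.54, 3.13 and 3.17 in E16.5 corneas. Its loss therefore lay between the corneal stages, where it fell by 1.02 ± 0.10 on the log2 scale (adjusted p = 0.000266, edgeR), close to the 2-fold limit. From E10.5 to E14.5 the difference in *Pfkp* was 0.13 ± 0.10 (adjusted p = 0.281, edgeR).

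Aldolase splits the 6-carbon sugar, and its forms went opposite ways. *Aldoa*, the main form, was at 356, 357 and 389 FPKM in pNC and at 279, 249 and 257 FPKM in E16.5 corneas, and fell by 0.34 ± 0.11 on the log2 scale (adjusted p = 0.0154, edgeR). *Aldoc* (gene 11676, chromosome 11, 78323073 to 78327781), known best from brain, was at 1.12, 1.11 and 1.41 FPKM in pNC, at 8.89, 2.82 and 2.78 in E14.5 corneas and at 14.87, 10.96 and 13.97 in E16.5 corneas. The stages did not overlap, and E14.5 replicate 1 stood well above the other E14.5 samples. *Aldoc* rose 12.1-fold from E10.5 to E16.5 (log2 3.59 ± 0.43, adjusted p = 2.54e-05, edgeR) and 3.92-fold by E14.5 (log2 1.97 ± 0.45, adjusted p = 0.00371, edgeR). Without E14.5 replicate 1 the E14.5 value was log2 1.20 ± 0.24 (adjusted p = 0.00125, edgeR), so the gene was called there with and without that sample.

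**Figure D2:**
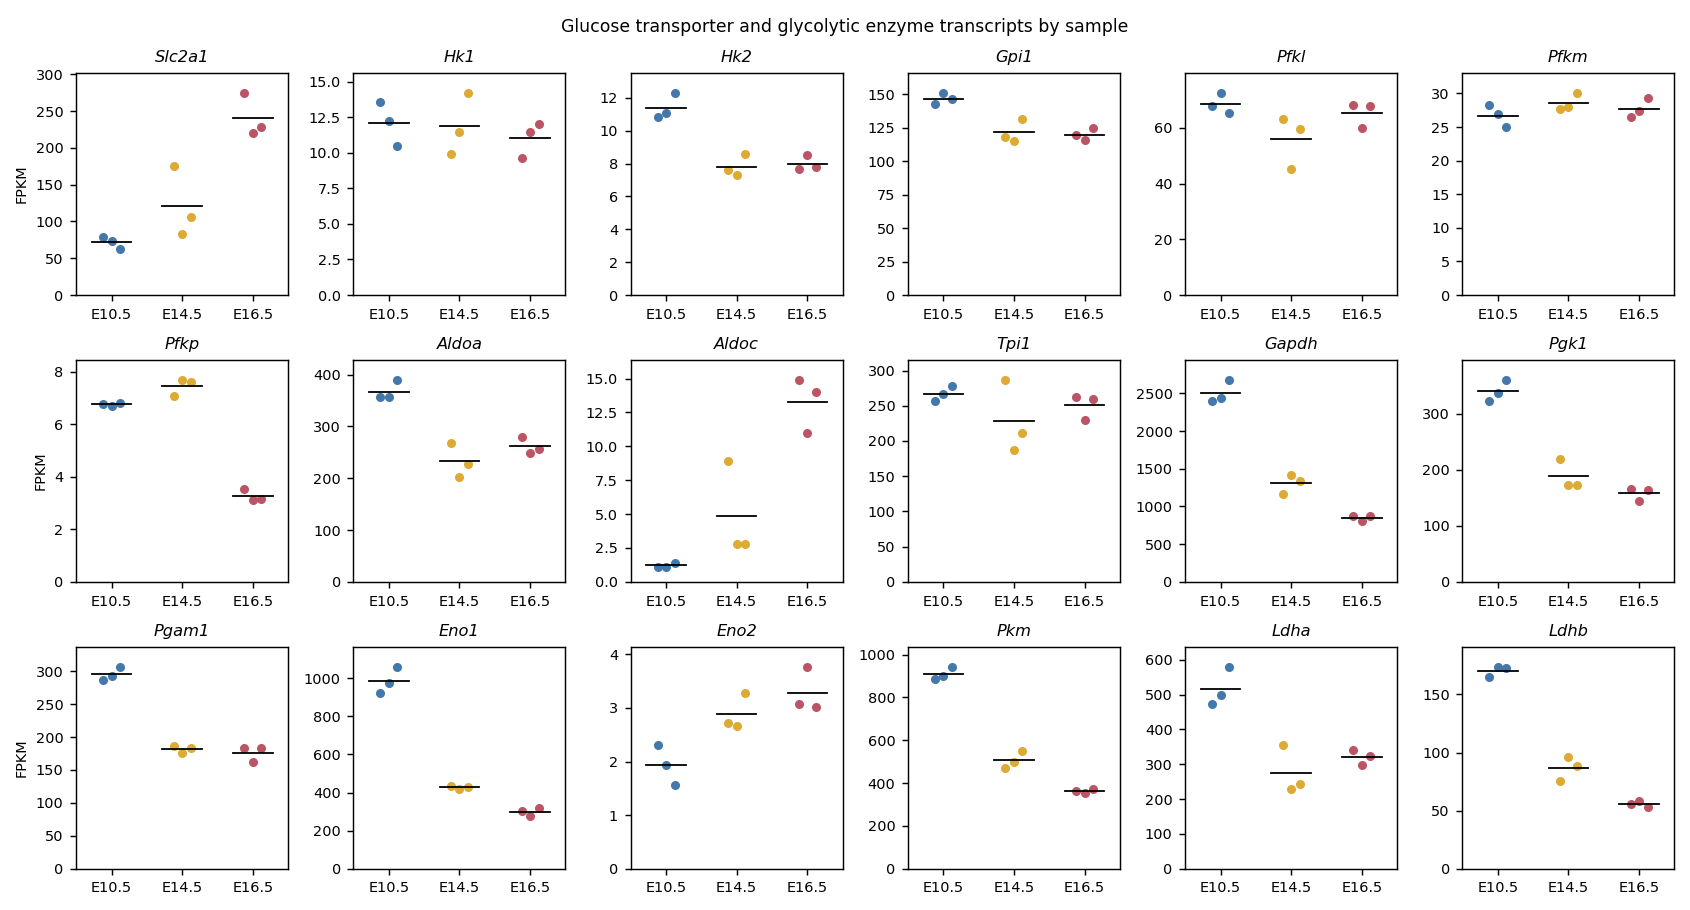
FPKM (y axis, linear and starting at 0, scaled per gene) of the glucose transporter and the 17 glycolytic enzyme genes in each of the 9 samples (points) by stage, with the mean of 3 samples as a line. *Slc2a1*, *Aldoc* and *Eno2* are higher in E16.5 corneas than in pNC, and *Gapdh*, *Pgk1*, *Pgam1*, *Eno1*, *Pkm* and *Ldhb* are lower, with no overlap between those stages.

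The steps after aldolase held the 4 genes that fell by at least 2-fold from E10.5 to E16.5. *Tpi1*, which interconverts the 3-carbon sugars, was not among them, at 257 to 278 FPKM in pNC and 230 to 263 in E16.5 corneas (log2 0.06 ± 0.14, adjusted p = 0.735, edgeR). *Gapdh* (gene 14433, chromosome 6, 125161852 to 125166467), which makes NADH and is widely used as a reference gene, was at 2401, 2437 and 2673 FPKM in pNC. It was at 1171, 1412 and 1344 FPKM in E14.5 corneas and at 873, 811 and 870 in E16.5 corneas. The 3 stages were ordered with no overlap, and in rank among all genes of a sample *Gapdh* went from 3rd or 4th to between 9th and 32nd and then to between 52nd and 65th. *Gapdh* fell by 1.41 ± 0.11 on the log2 scale from E10.5 to E16.5 (adjusted p = 9.57e-07, edgeR) and by 0.95 ± 0.10 by E14.5 (adjusted p = 3.29e-05, edgeR). *Gapdh* reads were shared by the authors' counting with other genes in all samples, as its fractional counts show, and it has many pseudogenes, so its level is uncertain to that extent.

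*Eno1* (gene 13806, chromosome 4, 150236708 to 150248879) encodes the ubiquitous enolase, and its reads were split with other genes in 6 of 9 samples, where its count differed from a whole number by more than 0.001. It was at 921, 976 and 1058 FPKM in pNC, at 433, 418 and 430 in E14.5 corneas and at 303, 279 and 317 in E16.5 corneas. It was the member called lower in E14.5 corneas, falling by 1.22 ± 0.09 on the log2 scale (adjusted p = 2.82e-06, edgeR), and reached -1.57 ± 0.10 in E16.5 corneas (adjusted p = 2.61e-07, edgeR). The neuronal form *Eno2* went the other way at a low level, from 1.57 to 2.30 FPKM in pNC to 3.01 to 3.76 FPKM in E16.5 corneas (log2 0.91 ± 0.20, adjusted p = 0.002, edgeR). *Pgk1* and *Pgam1*, whose enzymes stand between *Gapdh* and enolase, fell by less than 2-fold, by 0.96 ± 0.11 and by 0.60 ± 0.08 on the log2 scale (adjusted p = 1.53e-05 and 6.94e-05, edgeR). *Pgk1* reached 2-fold with library totals, where its log2 value was -1.11.

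*Pkm* encodes the pyruvate kinase of embryonic and most adult tissues, whose splice forms could not be separated in gene-level counts. It was at 886, 898 and 941 FPKM in pNC, at 472, 500 and 551 in E14.5 corneas and at 362, 353 and 371 in E16.5 corneas. It fell by 1.18 ± 0.10 on the log2 scale from E10.5 to E16.5 (adjusted p = 1.85e-06, edgeR), and no 2 stages overlapped.

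Lactate dehydrogenase is a tetramer of A subunits, which favour lactate formation, and B subunits, which favour its oxidation. *Ldha* was at 473, 499 and 579 FPKM in pNC, at 356, 228 and 243 in E14.5 corneas and at 341, 298 and 324 in E16.5 corneas. *Ldhb* (chromosome 6, 142490249 to 142507957) was at 165, 173 and 173 FPKM in pNC, at 75.8, 96.0 and 88.7 in E14.5 corneas and at 56.1, 57.9 and 53.1 in E16.5 corneas. Both were below the E10.5 range in every corneal sample, but *Ldhb* fell again from E14.5 to E16.5 (log2 -0.48 ± 0.10, adjusted p = 0.00389, edgeR) while *Ldha* did not differ detectably between the corneal stages (log2 0.38 ± 0.16, adjusted p = 0.0823, edgeR). Without E14.5 replicate 1, however, *Ldha* rose there by 0.60 ± 0.10 on the log2 scale (adjusted p = 0.00055, edgeR). *Ldhb* fell by 1.46 ± 0.10 on the log2 scale from E10.5 to E16.5 (adjusted p = 4.18e-07, edgeR) and *Ldha* by 0.54 ± 0.16 (adjusted p = 0.00968, edgeR). *Ldhb* made up 24.9% ± 1.6 of the summed *Ldha* and *Ldhb* FPKM in pNC, 24.6% ± 6.3 in E14.5 corneas and 14.8% ± 1.3 in E16.5 corneas. The *Ldhb* to *Ldha* ratio did not pass the test across the 3 stages (exact permutation test, p = 0.0464, adjusted over 12 ratios 0.0506), and without E14.5 replicate 1 it did (adjusted p = 0.00714, exact permutation test).

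Ratios between related genes within a sample do not depend on library totals, and 12 were tested over the 3 stages by exact permutation of the F statistic on log2(FPKM + 0.1). Of these, 9 had an adjusted p under 0.05, where the smallest p the design allows is 0.00357. At that smallest p (adjusted 0.00714, exact permutation test, n = 3 per stage) stood *Pfkp* to *Pfkl*, *Aldoc* to *Aldoa*, *Eno2* to *Eno1*, *Pdk3* to *Pdk1*, *Pfkfb4* to *Pfkfb3* and *Hif3a* to *Hif1a*. The share of *Aldoc* in the aldolase sum was 0.328% ± 0.029 in pNC, 1.93% ± 1.1 in E14.5 corneas and 4.81% ± 0.52 in E16.5 corneas. The share of *Eno2* in the sum of *Eno1* and *Eno2* was 0.199% ± 0.050, 0.671% ± 0.075 and 1.09% ± 0.21. Glial and neuronal markers, whose tissues are known for these forms, summed to between 97.3 and 161 FPKM in pNC and to between 8.19 and 9.86 in E16.5 corneas. Both minor forms remained a small part of these sums although their ratios moved by 3.83 and 2.46 on the log2 scale. The muscle enolase *Eno3*, described below, is not in the enolase sum and was above *Eno2* at every stage. *Hk2* to *Hk1* passed narrowly (adjusted p = 0.0476, exact permutation test) and did not with a pseudocount of 1 FPKM (adjusted p = 0.0506, exact permutation test) or when any 1 of 7 of the 9 samples was left out.

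**Figure D3:**
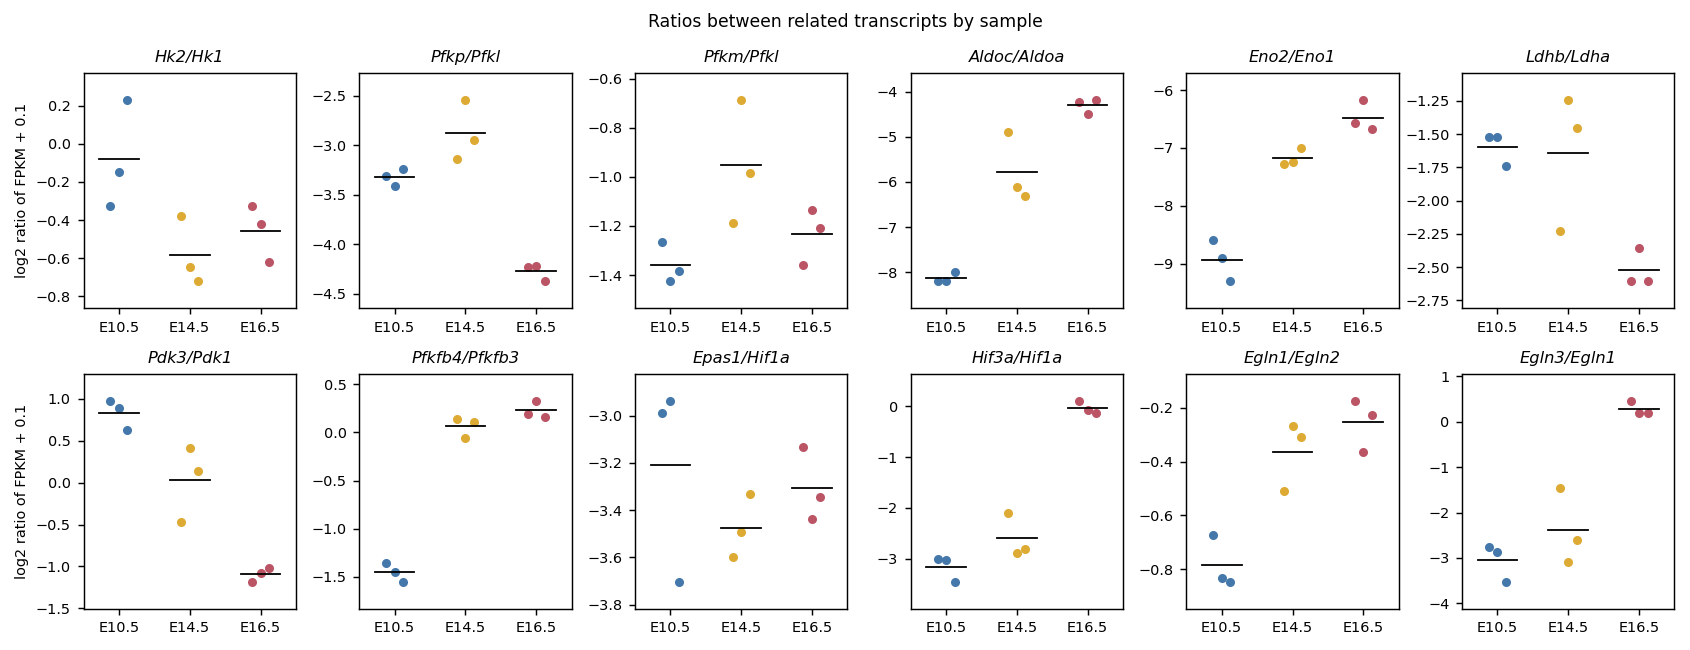
Log2 ratio of FPKM + 0.1 (y axis, scaled per panel) between 12 pairs of related genes in each of the 9 samples (points) by stage, with the mean as a line. *Hif3a* to *Hif1a* goes from a mean of -3.16 in pNC to -0.03 in E16.5 corneas, and *Pdk3* to *Pdk1* from 0.83 to -1.09.

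Among the kinase genes that direct carbon flow, *Pdk1* and *Pdk3* went opposite ways. Pyruvate dehydrogenase kinases close the entry of pyruvate into mitochondrial oxidation, and *Pdk1* is a known HIF target. *Pdk1* was at 10.3, 12.3 and 16.1 FPKM in pNC, at 24.0, 15.2 and 16.4 in E14.5 corneas and at 27.3, 24.6 and 26.4 in E16.5 corneas, and rose 2.24-fold from E10.5 to E16.5 (log2 1.17 ± 0.18, adjusted p = 0.000189, edgeR). With limma on log2(FPKM + 1) its value was 0.98, short of 2-fold. *Pdk3* was at 20.5, 22.9 and 25.0 FPKM in pNC and at 11.98, 11.63 and 12.93 in E16.5 corneas, a fall of 0.76 ± 0.10 on the log2 scale (adjusted p = 7.52e-05, edgeR). The order of the pair was reversed, with *Pdk3* above *Pdk1* in every E10.5 sample and below it in every E16.5 sample.

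The *Pfkfb* enzymes make and break fructose 2,6-bisphosphate, the activator of phosphofructokinase. *Pfkfb4* was at 3.51, 3.60 and 3.80 FPKM in pNC, at 9.00, 6.59 and 6.60 in E14.5 corneas and at 8.93, 9.97 and 9.19 in E16.5 corneas. It rose 2.85-fold from E10.5 to E16.5 (log2 1.51 ± 0.14, adjusted p = 3.51e-06, edgeR). By E14.5 it had risen 2.01-fold (adjusted p = 0.00015, edgeR), which was 0.85 on the log2 scale without E14.5 replicate 1. *Pfkfb3*, by contrast, fell by 0.54 ± 0.12 on the log2 scale by E14.5 (adjusted p = 0.00234, edgeR) and was at 9.12 to 11.3 FPKM in pNC and 7.81 to 8.19 in E16.5 corneas (log2 -0.20 ± 0.12, adjusted p = 0.139, edgeR). From E14.5 to E16.5 both genes rose by less than 2-fold, *Pfkfb3* by 0.34 ± 0.12 and *Pfkfb4* by 0.50 ± 0.13 on the log2 scale (adjusted p = 0.0429 and 0.0133, edgeR).

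The 3 HIF factors differed in course. *Hif1a*, the broadly expressed subunit, was at 41.1, 38.7 and 41.2 FPKM in pNC, at 45.3, 50.8 and 49.4 in E14.5 corneas and at 43.7, 38.1 and 41.9 in E16.5 corneas. *Hif1a* rose slightly by E14.5, where every sample lay above those of E10.5 (log2 0.25 ± 0.08, adjusted p = 0.0225, edgeR). Its E16.5 range enclosed that of E10.5, and the difference between them was 0.18 ± 0.08 on the log2 scale with a 95% interval from 0.00 to 0.36 (adjusted p = 0.074, or 0.0329 without E14.5 replicate 1, edgeR). *Epas1*, which encodes HIF2 alpha and is strong in endothelium, was at 3.07 to 5.08 FPKM in all 9 samples (E16.5 vs E10.5, log2 0.06 ± 0.20, interval from -0.39 to 0.51, adjusted p = 0.801, edgeR).

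*Hif3a* (gene 53417, chromosome 7, 17030993 to 17062427), whose product includes splice forms that restrain the other HIF subunits, was at 5.02, 4.64 and 3.67 FPKM in pNC, at 10.54, 6.80 and 6.99 in E14.5 corneas and at 47.3, 36.4 and 38.3 in E16.5 corneas. The lowest E16.5 sample was more than 3 times the highest E14.5 sample. *Hif3a* rose 10.1-fold from E10.5 to E16.5 (log2 3.34 ± 0.19, adjusted p = 1.66e-07, edgeR), and 5.60-fold between E14.5 and E16.5 (log2 2.49 ± 0.18, adjusted p = 0.000138, edgeR). At E16.5 its FPKM was close to that of *Hif1a* in each sample, the log2 ratio being 0.11, -0.07 and -0.13, against -3.01, -3.03 and -3.45 in pNC. Splice forms of *Hif3a* could not be separated in these gene-level values, and its counts were fractional in 8 of 9 samples.

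Among the oxygen sensors *Egln3* alone was called by 2-fold in any comparison. *Egln3* (gene 112407, chromosome 12, 54178981 to 54203874), a prolyl hydroxylase that is itself induced by HIF, was at 3.21, 2.90 and 1.51 FPKM in pNC, at 8.02, 2.52 and 4.36 in E14.5 corneas and at 36.7, 25.0 and 28.7 in E16.5 corneas. It rose 13.1-fold from E10.5 to E16.5 (log2 3.71 ± 0.37, adjusted p = 6.05e-06, edgeR) and 6.78-fold from E14.5 to E16.5 (log2 2.76 ± 0.34, adjusted p = 0.000571, edgeR). E10.5 and E14.5 overlapped (log2 0.95 ± 0.39, adjusted p = 0.0581, edgeR). The other sensors moved by less: *Egln1* rose by 0.38 ± 0.12 from E10.5 to E16.5 and *Vhl* fell by 0.23 ± 0.09 on the log2 scale (adjusted p = 0.0122 and 0.0375, edgeR), and *Egln2* differed by -0.15 ± 0.10 (adjusted p = 0.218, edgeR). In FPKM *Egln3* was below *Egln1* in all 6 samples of E10.5 and E14.5 and above it in all 3 samples of E16.5.

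**Figure D4:**
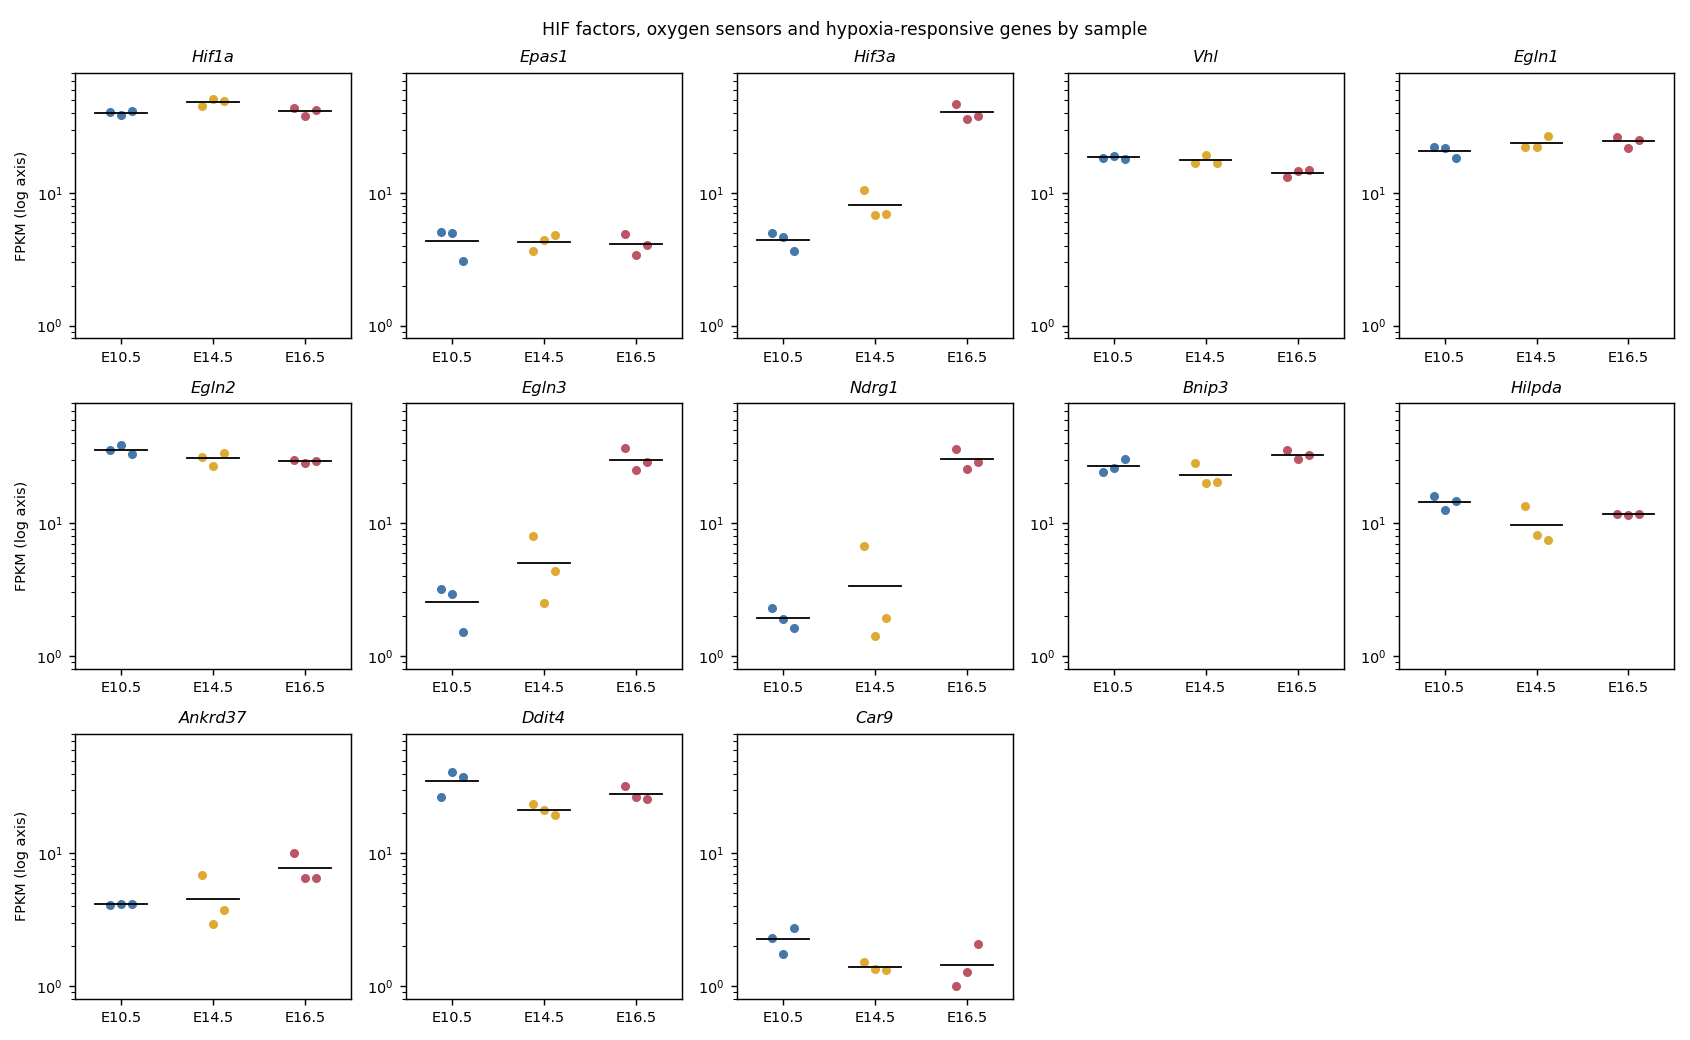
FPKM (y axis, log scale, the same in every panel) of the HIF factors, oxygen sensors and other hypoxia-responsive genes in each of the 9 samples (points) by stage, with the mean as a line. *Hif3a*, *Egln3* and *Ndrg1* lie between 25.0 and 47.3 FPKM in E16.5 corneas and at or below 10.54 FPKM in all earlier samples, while *Hif1a* stays between 38.1 and 50.8.

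The 6 further hypoxia-responsive genes did not move together. *Ndrg1* (gene 17988, chromosome 15, 66929318 to 66969641), a stress-responsive gene linked to cell differentiation, was at 2.29, 1.89 and 1.63 FPKM in pNC, at 6.72, 1.40 and 1.92 in E14.5 corneas and at 36.5, 25.7 and 28.9 in E16.5 corneas. It rose 17.3-fold from E10.5 to E16.5 (log2 4.11 ± 0.45, adjusted p = 1.17e-05, edgeR) and 10.2-fold from E14.5 to E16.5 (log2 3.35 ± 0.42, adjusted p = 0.000595, edgeR), the latter being log2 4.34 ± 0.20 without E14.5 replicate 1. The high E14.5 value was again that of replicate 1, and without it the difference from E10.5 to E14.5 was -0.23 ± 0.26 on the log2 scale (adjusted p = 0.484, edgeR) in place of 0.77 ± 0.49 (adjusted p = 0.203, edgeR).

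*Ankrd37*, a small ankyrin-repeat gene known to respond to HIF, was at 4.08 to 4.17 FPKM in pNC, at 6.85, 2.91 and 3.74 in E14.5 corneas and at 10.1, 6.54 and 6.51 in E16.5 corneas. It was called 2.06-fold higher in E16.5 corneas than in pNC (log2 1.04 ± 0.31, adjusted p = 0.0107, edgeR). The call was lost without E16.5 replicate 1 (log2 0.81, adjusted p = 0.0528, edgeR) and with library totals (log2 0.89). It was also lost with the 3 limma fits on log2 FPKM (as low as log2 0.74) and by NOISeq recomputed from FPKM (log2 0.90). *Bnip3*, which promotes mitophagy, rose by less than 2-fold, from 24.3 to 30.3 FPKM in pNC to 30.7 to 35.6 in E16.5 corneas (log2 0.44 ± 0.14, adjusted p = 0.0152, edgeR).

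The remaining hypoxia-responsive genes did not differ detectably between E10.5 and E16.5. *Hilpda*, which governs lipid droplets, was at 12.6 to 16.1 FPKM in pNC and at 11.5 to 11.8 in E16.5 corneas (log2 -0.16 ± 0.21, adjusted p = 0.503, edgeR). *Ddit4*, an inhibitor of mTOR signalling, was at 26.6 to 40.9 and at 25.9 to 32.0 FPKM (log2 -0.17 ± 0.15, adjusted p = 0.328, edgeR). *Car9*, a carbonic anhydrase often used as a marker of hypoxia, was low in all samples, at 1.75 to 2.73 and at 1.0 to 2.08 FPKM (log2 -0.49 ± 0.30, adjusted p = 0.17, edgeR). *Hilpda* and *Ddit4* were lower in E14.5 corneas than in pNC, by 0.60 ± 0.21 and 0.73 ± 0.15 on the log2 scale (adjusted p = 0.0308 and 0.00215, edgeR), and *Ddit4* rose again by 0.56 ± 0.15 from E14.5 to E16.5 (adjusted p = 0.0178, edgeR).

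The difference from E10.5 to E16.5 can be split at E14.5. From the pNC to the E14.5 cornea *Aldoc* and *Pfkfb4* rose and *Eno1* fell by at least 2-fold, that is 2 and 1 of 35 members, against 13.6% and 7.97% of all tested genes. With no minimum on the fold, 7 rose and 14 fell, against 28.9% and 27.5%, and 10 of the 14 were glycolytic enzyme genes. The FPKM of those stages did not overlap for 7 members that were higher and 15 that were lower, against 31.4% and 29.6%. Between E14.5 and E16.5, 5 members rose (*Slc2a1*, *Aldoc*, *Hif3a*, *Egln3* and *Ndrg1*) and *Pfkp* fell by at least 2-fold, against 6.26% and 5.47%, and with no minimum 13 rose and 6 fell, against 17.5% each way. Between these stages 8 members were higher and 9 lower with no overlap, against 14.8% and 38.3%. The comparisons share samples and are not independent of each other.

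E14.5 replicate 1 had the highest FPKM of its stage for all 8 genes that rose from E10.5 to E16.5 and the lowest for 3 of the 4 that fell. It was the highest for 20, the lowest for 10 and in between for 5 of the 35 genes. The same sample was also the one with the most corneal epithelial and keratocyte marker RNA of its stage, and the part this played in its values was not tested.

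Genes outside the list but in the same pathways were taken from broader lists of 55 glucose metabolism genes and 49 hypoxia-related genes. The latter held components of the response to low oxygen as well as genes that respond to it. Of 51 glucose genes tested, 8 rose and 8 fell by at least 2-fold from E10.5 to E16.5, against 19.4% and 15.4% of all tested genes, with a median log2 fold change of -0.03. From E10.5 to E14.5 the counts were 5 and 5, against 13.6% and 7.97%, and from E14.5 to E16.5 they were 2 and 1, against 6.26% and 5.47%. *Pdk2*, another pyruvate dehydrogenase kinase, was at 7.66, 7.11 and 4.67 FPKM in pNC, at 24.5, 14.95 and 19.4 in E14.5 corneas and at 46.6, 39.9 and 41.0 in E16.5 corneas, a rise of 2.86 ± 0.20 on the log2 scale (adjusted p = 6.56e-07, edgeR). *Pfkfb2* (log2 1.71 ± 0.12), the glycogen phosphorylase gene *Pygl* (log2 2.08 ± 0.19) and the pentose phosphate gene *Tkt* (log2 1.30 ± 0.14) rose as well. *Tkt* was abundant, at 110 to 120 FPKM in pNC and 249 to 259 in E16.5 corneas. The phosphoglycerate mutase gene *Pgam2* rose from E10.5 to E14.5 (log2 1.27 ± 0.24) and was also called higher from E10.5 to E16.5 (log2 1.19 ± 0.25).

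Genes of the glucose list that fell included ones known from muscle and red cells. The muscle enolase *Eno3* was at 41.1, 47.0 and 48.5 FPKM in pNC and at 9.63, 8.04 and 9.83 in E16.5 corneas (log2 -2.15 ± 0.12, adjusted p = 1.55e-07, edgeR), and the insulin-responsive transporter *Slc2a4* at 11.3 to 13.1 and at 2.32 to 3.26 FPKM (log2 -2.02 ± 0.21). The 5 skeletal muscle markers summed to between 14.3 and 16.7 FPKM in pNC and to at most 1.42 in the corneas. *Bpgm*, which serves red cells, fell by 1.07 ± 0.10 on the log2 scale beside the lower red cell markers given above. The part of these cells in the 3 differences was not tested.

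Of 48 other hypoxia-related genes tested, 11 rose and 7 fell by at least 2-fold from E10.5 to E16.5, against the same 19.4% and 15.4%, and the median log2 fold change was 0.25. From E10.5 to E14.5, 9 rose and 2 fell (13.6% and 7.97% of all tested genes), and from E14.5 to E16.5, 6 rose and 3 fell (6.26% and 5.47%). *Ppp1r3c*, which directs glycogen synthesis, was at 0.86, 1.02 and 1.05 FPKM in pNC, at 17.8, 7.40 and 5.64 in E14.5 corneas and at 29.7, 21.7 and 25.2 in E16.5 corneas (log2 4.85 ± 0.42, adjusted p = 2.5e-06, edgeR). *Car12*, a membrane carbonic anhydrase, rose from between 1.09 and 1.84 FPKM to between 17.6 and 24.9 (log2 3.99 ± 0.27, adjusted p = 5.42e-07, edgeR). *Ier3* (log2 3.39 ± 0.40) and *Pam* (log2 2.97 ± 0.19) were called higher by the same rule. Those that fell included *Sap30* (log2 -2.12 ± 0.17), the transferrin receptor gene *Tfrc* (log2 -1.85 ± 0.08), the haem oxygenase gene *Hmox1* (log2 -1.78 ± 0.22) and *Arnt2* (log2 -1.47 ± 0.17). The last of these encodes a partner of HIF alpha subunits. In the other comparisons, *Plod2* fell from E10.5 to E14.5 (log2 -1.07 ± 0.10). *Plod1* (log2 1.42 ± 0.17) and *Bhlhe40* (log2 1.36 ± 0.25) rose from E14.5 to E16.5. Both were also higher in every E16.5 sample than in every E10.5 sample. *Plod1* was at 14.7 to 19.4 FPKM in pNC and at 65.8 to 80.5 in E16.5 corneas. For *Bhlhe40* the ranges were 0.87 to 1.67 and 6.23 to 9.11 FPKM.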

How the data were processed

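RNA-Seq was measured in 9 samples, 3 per stage, and stages and replicate numbers came from the sample labels, which do not name the embryos, so p-values measure the spread between these pooled samples. The authors filtered reads, mapped them with Bowtie2 to reference genes and with HISAT to GRCm38, and quantified them with RSEM; versions are not given in the sources used here. The deposited expected counts are estimates that need not be whole, and the deposited FPKM values were scaled by the authors for transcript length and library total. A gene absent from a sample was taken as 0. Symbols were found in RefSeq for 19312 of 19369 identifiers.

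Expected counts were rounded and tested with edgeR 4.0.16 in R 4.3.3: filterByExpr by stage, TMM scaling, 1 quasi-likelihood model of all 9 samples, and Benjamini-Hochberg adjustment over 14771 genes. Genes were called at an adjusted p under 0.05 with a difference of 1 or more on the log2 scale. Errors were derived from the fold change and its F statistic, and 95% intervals from the t distribution with the degrees of freedom of the fit. Ratios were tested by exact permutation, which for the F statistic has no direction. An exact test of 3 samples against 3 cannot go below 0.1. The scripts were tested on simulated data.

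Alternatives were RLE or no composition scaling, no filter, DESeq2 1.42.0, limma 3.58.1 on log2 FPKM, NOISeq recomputed from FPKM, only the stages compared, a replicate block and leaving out each sample. All members were named, and of the broader lists the called genes with a mean of at least 5 FPKM in a stage, no overlap between stages, and up to 4 per direction and comparison. The members and lists were chosen with earlier results of these data known. Reads that fit several genes were split by RSEM, which affects *Gpi1*, *Gapdh*, *Eno2*, *Pdk1*, *Pfkfb3* and *Epas1* in every sample and *Pfkl*, *Aldoa*, *Eno1*, *Ldha*, *Hif3a* and *Car9* in some. Promoter letters were searched on both strands.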

Additional observations from a re-analysis of the deposited data

How the results depend on the processing

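Members called from E10.5 to E14.5 varied most. Higher calls numbered 1 with RLE scaling, with DESeq2 and with the 3 limma fits, 7 with no minimum fold, 0 by NOISeq, and 1 to 4 when samples were left out in turn, against 2 as reported. Lower calls numbered 2 with RLE scaling and DESeq2, 14 with no minimum fold and 1 to 2 with samples left out, against 1. From E10.5 to E16.5, 12 rather than 4 fell with no minimum fold, and higher calls ranged from 6 (limma on log2(FPKM + 1)) to 12 (no minimum fold) against 8. From E14.5 to E16.5, 13 rather than 5 rose and 6 rather than 1 fell with no minimum fold. Lower calls there were 0 with limma on log2(FPKM + 1), filtered or not, and by NOISeq, and 0 to 1 with samples left out; limma gave 9 members lower at an unadjusted p under 0.05 and 8 at an adjusted one. These counts sit close to the 2-fold limit: *Pfkfb4* lay at log2 0.99 with RLE scaling, and *Pfkp* at -0.98 with limma. Without E14.5 replicate 2, *Egln3* (log2 1.27) and *Ndrg1* (log2 1.14) were called at E14.5, and without E14.5 replicate 1 *Ldha* fell by 1.14 from E10.5 to E14.5 and *Ankrd37* rose by 1.36 between the corneal stages. Some differences under 2-fold, among them those of *Hif1a* and *Hilpda* at E14.5 and of *Bnip3*, *Vhl*, *Egln1* and *Aldoa* at E16.5 against E10.5, lost an adjusted p under 0.05 without at least 1 of the samples.

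Dividing FPKM by the TMM factor gave enzyme sums of 3534 in the E14.5 cornea and 3210 in the E16.5 cornea, against 3679 and 2987 as deposited. Library totals lowered the median of all genes by 0.15 from E10.5 to E16.5 (median log2 -0.15). Ratios past the threshold numbered 8 to 11 over all alternatives, 9 as reported.

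With the replicate block, 8 members rose and 4 fell from E10.5 to E16.5, as without it, and no call changed in number in the other comparisons. Same-numbered samples correlated on average at -0.03 (range -0.26 to 0.22, 9 pairs), and 0 samples correlated best with their own number in both other stages, so the numbers were not taken as pairs.

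No called difference changed direction. In 71 of 1995 recomputed values, for 12 members, the sign changed where neither value had an adjusted p under 0.05. Depth limits low genes most: *Aldoc* had as few as 17 expected counts in a sample and *Ankrd37* 23.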
